A study of Rattus norvegicus with 69 samples.

Results

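The genes described here make, take up, sense or break down adenosine and other purines: guanine deaminase (Gda), adenosine kinase (Adk), the adenosine receptors Adora1 and Adora2a, the ecto-5'-nucleotidase Nt5e and hypoxanthine-guanine phosphoribosyltransferase (Hprt1). Their members on the array were found by gene symbol in the probe annotation, which gave 8 probe sets of 5 genes among 8799 probe sets in all. No probe set there carries the symbol Nt5e, which was not analysed here. Of the 8 probe sets, 3 belonged to Gda, 2 to Hprt1 and 1 each to Adk, Adora1 and Adora2a.

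Adenosine builds up outside cells as ATP is used and is taken as one of the body's signals of sleep need. Adora1 couples to inhibitory G proteins and dampens transmitter release at hippocampal synapses, whereas Adora2a couples to stimulatory G proteins and is best known from striatal neurons. Adk, found mostly in astrocytes of the adult brain, phosphorylates adenosine to AMP and so draws it back into cells, and Nt5e forms adenosine from AMP at the cell surface. Hprt1 salvages hypoxanthine and guanine to their nucleotides. Gda, also known as cypin, takes guanine out of that salvage by converting it to xanthine, and in neurons it is also known for binding tubulin and shaping dendrites.

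Messenger RNA of the hippocampal CA1 region was measured on 69 Affymetrix RGU34A arrays, 1 for each male F344 rat of 3 to 5 months. Sleep-deprived (SD) rats were placed on small platforms in a chamber filled with water for 24 or 72 hours (24SD, 8 rats in cohort 1 and 8 in cohort 2; 72SD, 8 in cohort 1 and 12 in cohort 2). Rats stressed by an unfamiliar environment (NES) spent the same times in this chamber with the platforms covered by a grid, on which sleep was possible (24NES, 10 rats; 72NES, 6 rats, all in cohort 1). Home cage (HC) controls numbered 5 in cohort 1 and 12 in cohort 2. Training on an active avoidance task had been given to the HC and SD rats of cohort 1. The NES rats are not named among the trained, so in comparisons with them a part of training cannot be told apart. The authors noted no effect of training on their array measures, without showing the data. Cage mates went through the procedure as pairs, the labels do not name the pairs, and each p-value below therefore treats the animals as independent.

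Values are MAS5 signals, which are linear intensities of a probe set with each array scaled as a whole, or log2 of these signals. Differences are on the log2 scale with their standard error, from limma with cohort as a term for SD (53 arrays) and within cohort 1 for NES (21 arrays). An F-test asks whether either duration differed from HC, and a call means a Benjamini-Hochberg adjusted p under 0.05. Adk, Gda, Hprt1 and Adora2a, each by its brightest probe set, were among the 2696 genes whose mean signal lay in the upper 50% of the array. The remaining 4 probe sets were tested with all 8740 probe sets that are not array controls, and 2 of them (Adora1 and 1 for Gda) lay below the signal filter of 440. Levels are not compared between genes, because a probe set's brightness depends on its probes.

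Array medians ranged over 400.5 to 484.9. The mean log2 of the array medians of a group differed from that of HC of its cohort by at most 0.04. The ratio of 3' to 5' GAPDH signal was highest on 72NES array 71 (1.26), 24SD array 30 of cohort 2 (1.18) and HC array 3 of cohort 1 (1.18). In 53 SD and HC arrays 63.1% of the genes tested differed between the cohorts, so members are shown by cohort. The 3 CA1 pyramidal markers tested (Pou3f1, Man1a1 and Dcn) had passed the signal filter, so a non-zero signal on every array is no check of the dissection. Their summed signals were 2419 to 4656 in SD and 2590 to 4085 in HC rats of cohort 1. In cohort 2 they were 5023 to 6686 in 24SD, 2882 to 7550 in 72SD and 4725 to 7559 in HC rats.

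Among the members, Gda messenger was lower in sleep-deprived rats and passed the test. In cohort 1 its brightest probe set (rc_AA859837_g_at) had signals of 3683 to 4816 with a median of 4045 in the 8 24SD rats. The 8 72SD rats of that cohort had 3266 to 5057 with a median of 4377. The 5 HC rats had 4604, 6114, 5147, 5289 and 5443. All 16 SD rats of cohort 1 lay below the HC mean, and 11 of them below the lowest HC rat.

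The same probe set was also lower in cohort 2, with more overlap at 72 hours. The 8 24SD rats had 3556 to 5037 with a median of 3925, and the 12 72SD rats had 2966 to 6128 with a median of 4293. The 12 HC rats had 4204 to 5273 with a median of 4944. Of these 20 SD rats, 17 lay below the HC mean and 11 below the lowest HC rat, while 2 of the 72SD rats exceeded the highest HC rat. Over both cohorts 33 of 36 SD rats lay below the HC mean of their own cohort.

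Gda fell by 0.30 ± 0.067 on the log2 scale in 24SD rats against HC (adjusted p = 0.0141, limma), a level 0.811 times that of HC. In 72SD rats the difference was -0.23 ± 0.063, which was not called (adjusted p = 0.146). The F-test over both durations called Gda (adjusted p = 0.0314). That test called 10 of 2696 genes (0.371%), 24SD against HC called 39 (1.45%) and 72SD against HC called 1 (0.0371%). The 72SD and 24SD rats did not differ detectably, with 72SD above 24SD by 0.07 ± 0.064 (adjusted p = 0.98).

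The Gda call depended on how it was tested. With every non-control probe set in the test, where 0.114% were called by the F-test, its F-test had an adjusted p of 0.0765, while 24SD against HC was still called (adjusted p = 0.0309). With each array centred on its median these values were 0.078 and 0.0322, and in a model without cohort they were 0.0939 and 0.0448. Leaving out 1 array at a time, the F-test lost its call without any of 6 arrays, namely HC arrays 2, 3 and 5 of cohort 1 (adjusted p = 0.0975, 0.0535 and 0.0648), 24SD array 23 of cohort 1 (0.0500098) and 24SD arrays 28 and 32 of cohort 2 (0.0655 and 0.0527). The 24SD difference was called without any single array, with adjusted p-values up to 0.0373.

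Within each cohort Gda pointed the same way, and neither cohort called it alone. In cohort 2 the differences were -0.27 ± 0.089 for 24SD and -0.18 ± 0.080 for 72SD (adjusted p of the F-test = 0.54). In cohort 1 they were -0.37 ± 0.11 for 24SD and -0.33 ± 0.11 for 72SD (adjusted p of the F-test = 0.173). The change did not differ detectably between the cohorts, with cohort 2 above cohort 1 by 0.10 ± 0.14 at 24SD and 0.15 ± 0.13 at 72SD (adjusted p of the F-test = 0.962). That test of the cohorts called 0.185% of the genes tested and no member.

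A second probe set, rc_AA859837_at, comes from the same array entry as the brightest one and is not an independent measurement. In cohort 1 it had a median of 2271 in 24SD rats and 2507 in 72SD rats, against 2684, 3257, 2959, 2846 and 3117 in the 5 HC rats. In cohort 2 the medians were 2298 in 24SD, 2365 in 72SD and 2940 in HC rats. It lay below the HC mean in 31 of 36 SD rats. Its differences were -0.37 ± 0.11 for 24SD and -0.33 ± 0.10 for 72SD, and over all probe sets they were not called (adjusted p = 0.0959 and 0.328).

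The third Gda probe set, U03629_at, stood below the signal filter with a mean signal of 156 and did not follow the others. Its signals in cohort 2 had medians of 192 in 24SD, 105 in 72SD and 82.1 in HC rats. In cohort 1 the medians were 140 in 24SD, 106 in 72SD and 132 in HC rats. Its differences were 0.51 ± 0.26 for 24SD and 0.17 ± 0.25 for 72SD (adjusted p = 0.353 and 0.896, limma). The sign was positive in cohort 2 and negative in cohort 1, at 0.91 and -0.09 for 24SD.

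**Figure D1:**
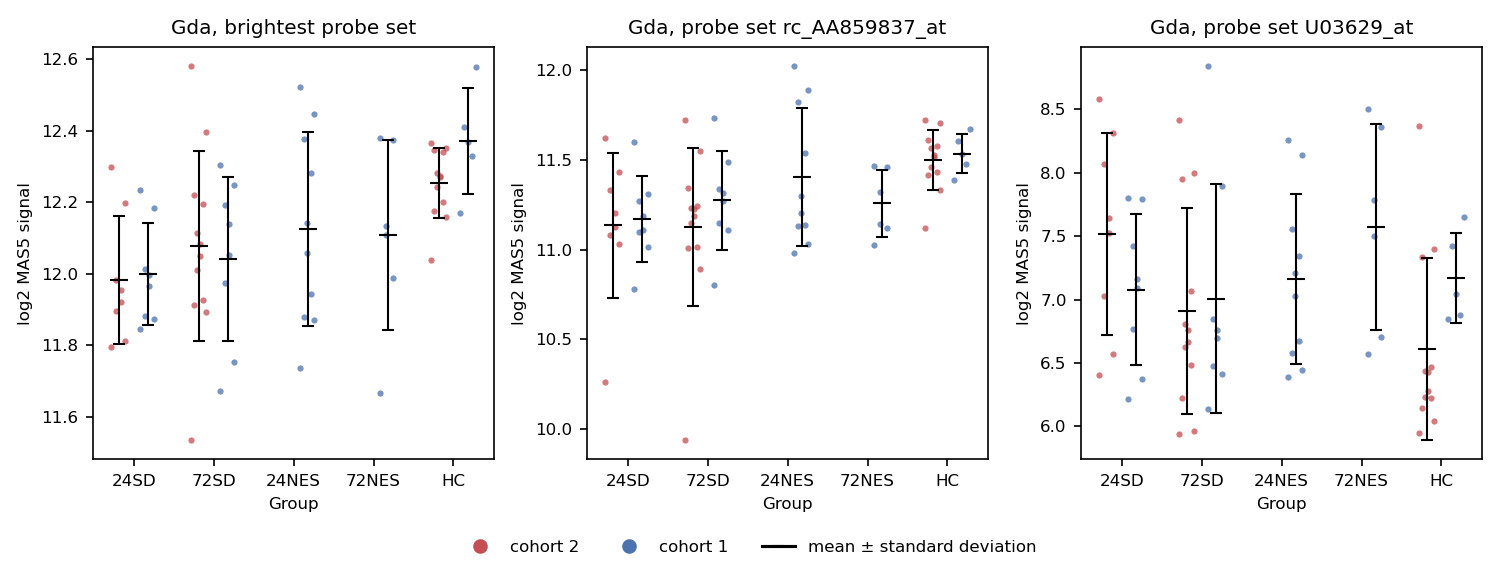
Log2 MAS5 signal of the 3 Gda probe sets by group (24SD, 72SD, 24NES, 72NES and HC), with a point per rat, cohort 2 in red and cohort 1 in blue, and the mean ± standard deviation in black. On the brightest probe set 33 of 36 SD rats lie below the HC mean of their cohort, and the dim probe set U03629_at shows no such shift.

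Across the 69 rats, with the means of the 8 group-by-cohort sets removed, the 2 bright Gda probe sets varied together. Pearson's r was 0.77 and Spearman's rho 0.76, each with a permutation p of 1e-05, the smallest that 100000 permutations can give (adjusted p over 4 pairs = 4e-05). These 2 probe sets share an array entry, and signals of 1 array share its RNA, so this p gives no independent support. Without the 2 most extreme rats r was 0.81, and it was 0.76 in cohort 2 and 0.81 in cohort 1. The dim probe set was not related to the brightest one (r = 0.02, rho = 0.086, permutation p = 0.884 and 0.517). So the lower Gda signal in SD rests on 2 probe sets that share a source.

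In NES rats Gda was also below HC on average but passed no test. The 10 24NES rats had 3415 to 5882 with a median of 4394, and the 6 72NES rats had 3253 to 5331 with a median of 4454. Against the HC rats of cohort 1, 11 of 16 NES rats lay below the HC mean, and 10 lay below the lowest HC rat. The differences were -0.25 ± 0.13 for 24NES and -0.26 ± 0.15 for 72NES (adjusted p = 0.392 and 0.867). The F-test for NES called 0 of 2696 genes (0%), with 306 at an unadjusted p of at most 0.05 and 12 genes (0.445%) called for 24NES alone.

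Gda did not differ detectably between SD and NES of the same duration. In cohort 1 (37 arrays, HC included) the 24SD rats minus the 24NES rats gave -0.13 with a 95% interval of -0.34 to 0.09. At 72 hours the difference was -0.07, with an interval of -0.31 to 0.18, and it was -0.01 ± 0.13 without 72NES array 71. These comparisons called 0.0371% of the genes tested at 24 hours and 0% at 72 hours, with no member among them (164 and 202 genes had an unadjusted p of at most 0.05). The 5 HC rats of cohort 1 enter the differences from HC of both SD and NES, so these differences are not independent. The SD differences over both cohorts also use the 12 HC rats of cohort 2.

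General neuron markers were mostly lower in SD, as Gda was, and their covariation with Gda is not given here. Of 8 tested, 7 were lower on average in SD than in HC rats, against 54% of all genes tested. Their median was -0.11 against -0.01 over all genes tested, and none was called. In NES 7 of the 8 were also lower on average, with a median of -0.12. Snap25, a protein of the synaptic release machinery, was the lowest of the 8 on average, at -0.24 ± 0.082 for 24SD and -0.18 ± 0.077 for 72SD (adjusted p = 0.24). Syt1, the 1 not lower on average, showed -0.02 ± 0.10 and 0.02 ± 0.097. The summed signal of the 8 markers had medians of 94302 in 24SD, 100726 in 72SD and 106888 in HC rats of cohort 2. In cohort 1 the medians were 122847 in 24SD, 126452 in 72SD and 131206 in HC rats. Of 9 interneuron markers tested, 5 were higher and 4 lower on average in SD, with a median of 0.00075. Of 3 CA1 pyramidal markers 1 was higher and 2 lower (median -0.008). All 3 CA3 pyramidal markers were lower (median -0.015), and none in these lists was called. The part of all these neuronal markers in the Gda result was not tested. In tissue RNA fewer cells of a type and less RNA per cell cannot be told apart.

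Of 3 genes tested from a list of dentate granule cell markers, 2 were higher and 1 lower on average. This held in SD (median 0.26) and in NES (median 0.38), and none was called. How particular these 3 genes are to granule cells was not tested. Neurod1, a neuronal transcription factor, showed 0.36 ± 0.098 at 24SD and 0.17 ± 0.092 at 72SD (adjusted p = 0.139), and Il1rap, an interleukin receptor subunit, 0.29 ± 0.11 and 0.24 ± 0.10 (adjusted p = 0.304). Calb2, the lower one, showed -0.15 ± 0.064 and -0.11 ± 0.060 (adjusted p = 0.414). The summed signal of the 3 had medians of 4124 in 24SD, 3812 in 72SD and 3828 in HC rats of cohort 2. In cohort 1 the medians were 3665 in 24SD, 3640 in 72SD and 2971 in HC rats.

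The summed signal of 3 blood markers in cohort 2 was 11867 to 18707 in 24SD, 9707 to 17277 in 72SD and 9088 to 17175 in HC rats. In cohort 1 it was 7664 to 15475 in 24SD, 7317 to 14577 in 72SD and 15078 to 17590 in HC rats. The NES rats had 6280 to 15824 at 24NES and 9224 to 14707 at 72NES. Every 72SD and 72NES rat of cohort 1 thus lay below its lowest HC rat. In NES all 3 markers were lower on average (median -0.34), and in SD 2 were higher and 1 lower (median 0.03). Their part in the Gda values was not tested. Of 7 choroid plexus and meningeal markers tested, 4 were higher and 3 lower on average in SD, with a median of 0.01. Rbp4, a retinol carrier, was the 1 called, at 0.43 ± 0.10 for 24SD and 0.35 ± 0.095 for 72SD (adjusted p of the F-test = 0.0383). Dcn, a matrix proteoglycan, showed -0.31 ± 0.26 and -0.77 ± 0.24 (adjusted p = 0.235). The same Dcn probe set is also among the CA1 pyramidal markers above, so its values cannot be given to either source.

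Adk, the enzyme that removes adenosine, was slightly higher on average in SD without passing the test. In cohort 2 it had medians of 1802 in 24SD and 1700 in 72SD rats, against 1521 in HC rats. In cohort 1 the medians were 1768 in 24SD and 1864 in 72SD rats, against 1151, 1442, 1529, 1943 and 1553 in the 5 HC rats. Of 36 SD rats 27 lay above the HC mean of their cohort, but only 5 exceeded its highest HC rat, so the groups overlapped widely. The differences were 0.16 ± 0.086 for 24SD and 0.16 ± 0.081 for 72SD (adjusted p of the F-test = 0.468).

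In NES rats Adk differed from HC by 0.17 ± 0.16 at 24NES and 0.22 ± 0.18 at 72NES (adjusted p = 0.647 and 0.907). These values moved with single arrays. They were 0.08 and 0.12 without HC array 1, and 0.26 and 0.31 without HC array 4. Array 71, with the highest GAPDH ratio, had an Adk signal of 909, and the other 5 72NES rats had 1622, 1786, 2061, 2186 and 2386. Without array 71 the 72NES difference was 0.40 ± 0.13 (adjusted p = 0.699). Between SD and NES rats the difference was 0.04 at 24 hours (95% interval -0.22 to 0.30) and 0.06 at 72 hours (-0.24 to 0.35), and without array 71 the 72-hour difference was -0.13 ± 0.12.

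Hprt1, often used as a reference gene, showed no called change in SD on either of its probe sets. The brighter one had medians of 5326 in 24SD, 4948 in 72SD and 5369 in HC rats of cohort 2. In cohort 1 it had 5997 in 24SD and 5906 in 72SD rats, against 5632, 5059, 4990, 6363 and 6255 in the 5 HC rats. The differences were 0.07 ± 0.058 for 24SD and -0.03 ± 0.054 for 72SD (adjusted p of the F-test = 0.6). On the dimmer probe set they were 0.11 ± 0.11 and 0.08 ± 0.11 (adjusted p of the F-test = 0.89).

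The widest Hprt1 difference was in 24NES rats, where the brighter probe set had 4831 to 8136 with a median of 6665, above the highest HC rat in 6 of 10. The difference was 0.23 ± 0.11 (adjusted p = 0.31), and 72NES rats showed 0.12 ± 0.12 (adjusted p = 0.933). The dimmer probe set gave 0.13 ± 0.11 for 24NES and -0.09 ± 0.12 for 72NES (adjusted p = 0.713 and 0.983). SD minus NES was -0.12 at 24 hours (95% interval -0.31 to 0.06) and -0.05 at 72 hours (-0.26 to 0.16), the 72-hour value being -0.03 ± 0.11 without 72NES array 71.

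Hprt1 also differed between the cohorts, in a direction that its probe sets did not share. The brighter one was lower in cohort 2 than in cohort 1 by a difference of -0.16 ± 0.047 (adjusted p = 0.00305), whereas the dimmer one showed 0.16 ± 0.091 (adjusted p = 0.136). Of the 4 members among the genes tested 1, Hprt1, was called between the cohorts, against 63.1% of all genes tested. The 2 probe sets were related across the 69 rats with group-by-cohort means removed (r = 0.47, rho = 0.44, permutation p = 9e-05 and 0.00024), with r of 0.49 in cohort 2 and 0.51 in cohort 1, and 0.45 without the 2 most extreme rats. Signals of 1 array share its RNA, hybridization and scaling, so these p-values do not show a relation particular to the gene.

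The adenosine receptors showed no called difference in SD or NES. Adora2a had medians of 520 in 24SD, 554 in 72SD and 576 in HC rats of cohort 2. In cohort 1 they were 646 in 24SD and 560 in 72SD rats, against 489, 752, 560, 569 and 606 in the 5 HC rats. The differences were -0.01 ± 0.066 for 24SD and -0.08 ± 0.062 for 72SD (adjusted p of the F-test = 0.726). The 24SD value was positive under quantile normalization (0.02) and with each array centred on its median (0.02).

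Of the 4 members among the genes tested, Adora2a at 72 hours had the largest difference between SD and NES. The 8 72SD rats of cohort 1 had 448 to 665 with a median of 560, and the 6 72NES rats had 522 to 946 with a median of 695, so the groups overlapped. The difference was -0.35 ± 0.14 with a 95% interval of -0.64 to -0.06 (unadjusted p = 0.0205, adjusted p = 0.654, limma), and -0.43 ± 0.15 without 72NES array 71 (adjusted p = 0.882). At 24 hours it was 0.03 (-0.23 to 0.29). Against HC, 24NES rats differed by 0.07 ± 0.17 and 72NES rats by 0.25 ± 0.19 (adjusted p = 0.887 and 0.903). The 24NES value was -0.0015 without HC array 1 and 0.15 without HC array 2.

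Striatal marker genes were measured because Adora2a is abundant in the striatum. Of all genes tested 54% were lower on average in SD and 51.2% in NES. Of 7 striatal markers on the array 3 were tested (Tac1, Ptpn5 and Penk), the others lying below the signal filter. These 3, not tested for being particular to striatal neurons, were all higher on average in SD and in NES than in HC rats. None of the 3 was called. Their summed signal had medians of 6486 in 72SD, 6297 in 72NES and 6136 in HC rats of cohort 1. Their part in the Adora2a values was not tested.

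Adora1 was dim on this array, with a mean signal of 197, and its values were scattered. In cohort 1 they were 59 to 450 with a median of 206 in 24SD rats and 176 to 333 with a median of 265 in 72SD rats. The 5 HC rats had 181, 301, 155, 184 and 262. In cohort 2 the medians were 170 in 24SD, 174 in 72SD and 153 in HC rats. The SD differences over both cohorts were 0.06 ± 0.20 and 0.19 ± 0.18 at 24SD and 72SD (adjusted p of the F-test = 0.883).

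The NES differences of Adora1 were -0.11 ± 0.28 and -0.17 ± 0.31 at 24NES and 72NES (adjusted p = 0.922 and 0.99), and 0.10 at 72NES without array 71. SD minus NES was -0.01 at 24 hours (95% interval -0.59 to 0.56) and 0.51 at 72 hours (-0.15 to 1.17; 0.25 without 72NES array 71), intervals wider than those of the 4 brighter members. Adora1 was lower in cohort 2 than in cohort 1, with a difference of -0.50 ± 0.16 (adjusted p = 0.00797). Over every probe set 50.4% differed between the cohorts.

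**Figure D2:**
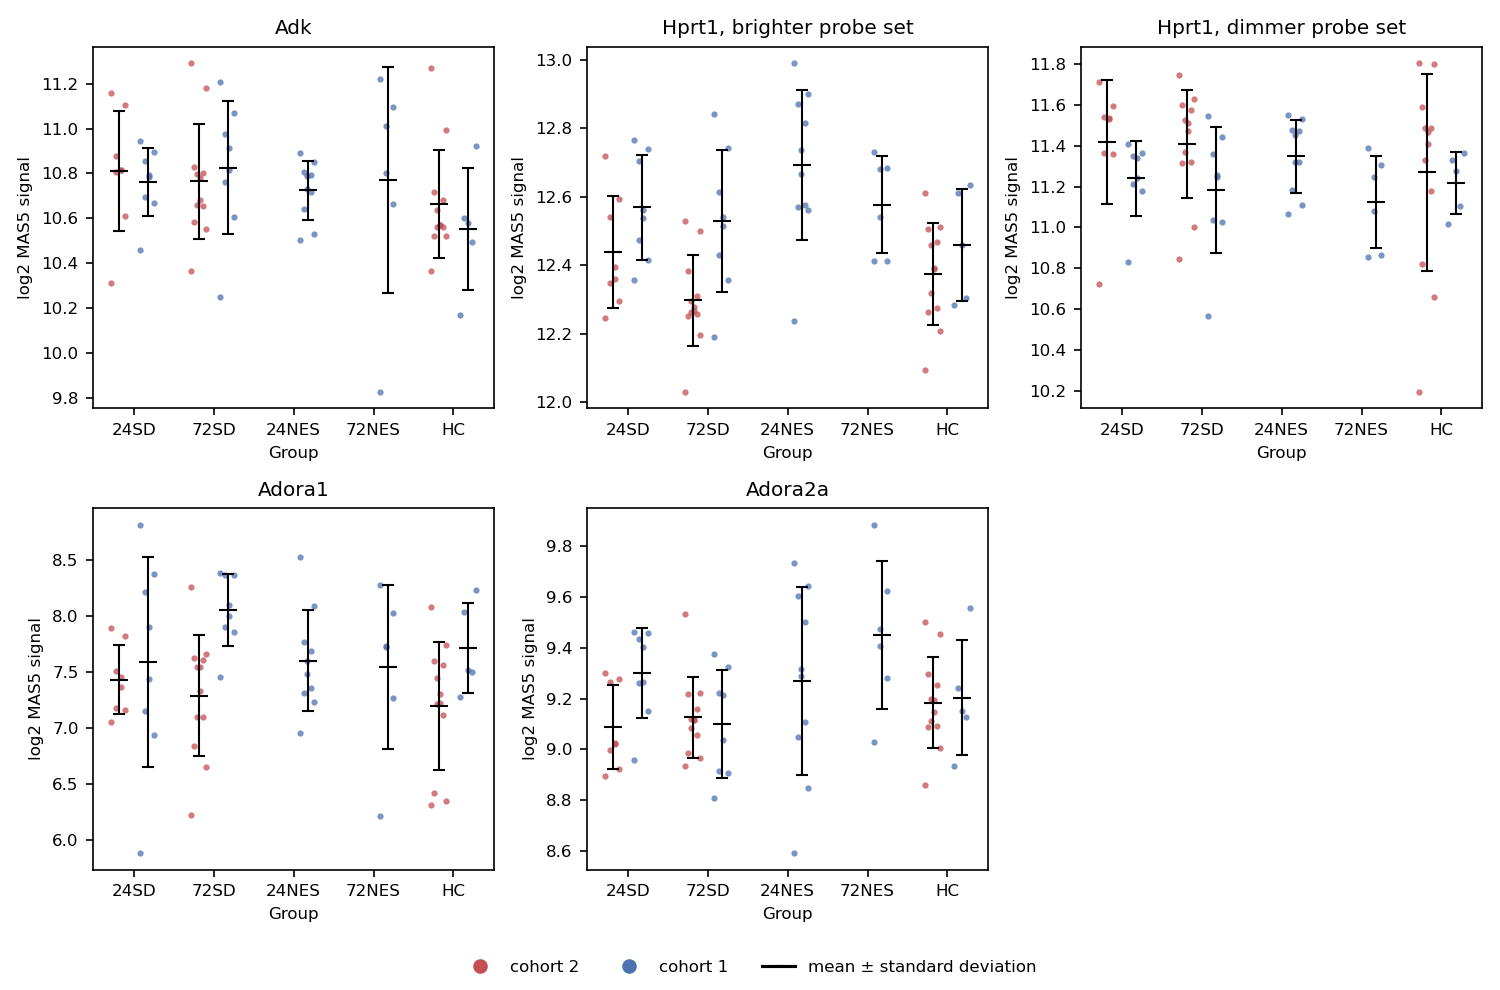
Log2 MAS5 signal of Adk, both Hprt1 probe sets, Adora1 and Adora2a by group, with a point per rat, cohort 2 in red and cohort 1 in blue, and the mean ± standard deviation in black. The groups overlap in every panel, and 72NES array 71 is the low Adk point of its group, at a signal of 909.

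The 8 group-by-cohort means were put in order for each probe set. For Gda the order by the brightest probe set began with 24SD of cohort 2 and ended with HC of cohort 1, a span of 0.39 on the log2 scale, and for Adk with HC of cohort 1 and 72SD of cohort 1 (0.27). For Hprt1 it ran to 24NES (0.40), and for Adora2a to 72NES (0.36). On that Gda probe set both HC sets stood above all SD and NES sets, with a gap of 0.127 between 24NES and HC of cohort 2. In each of the 8 probe sets, none of the 7 pairs of neighbours in the order was further apart than the larger of their standard deviations, which are those of single rats and wider than the error of a mean. With 8 sorted means over such spans a wider gap was unlikely, so its absence does not show that the sets are alike. Within the groups the log2 values spread least for the brighter Hprt1 probe set (standard deviation 0.168) and most for the dim Gda probe set (0.741).

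**Figure D3:**
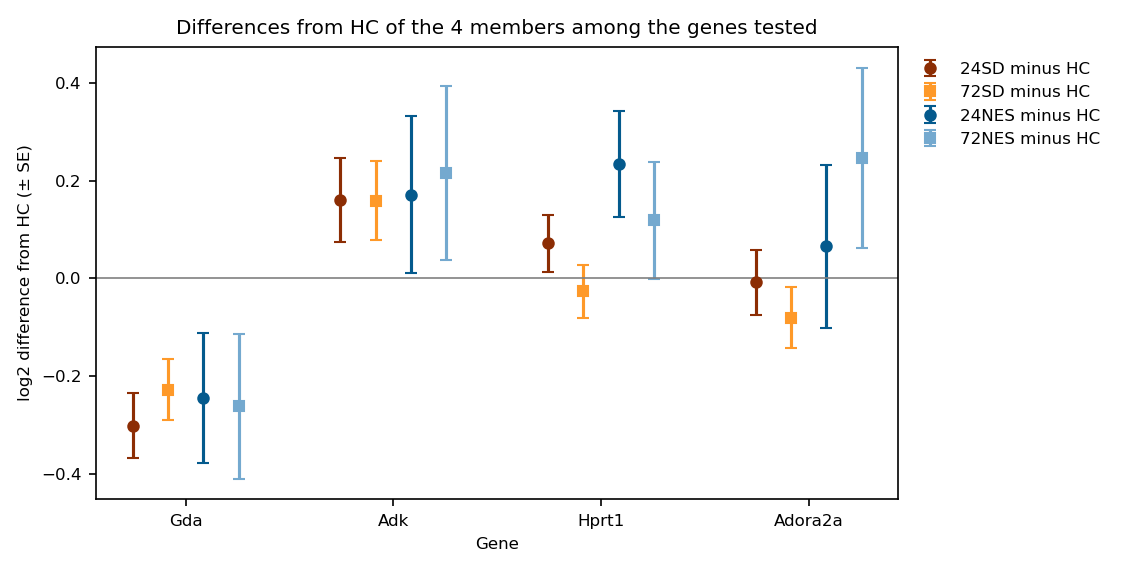
Log2 difference from HC (± standard error) of Gda, Adk, Hprt1 and Adora2a at 24SD, 72SD, 24NES and 72NES. Gda lies below 0 in all 4 comparisons, from -0.30 at 24SD to -0.23 at 72SD, and Adk lies above 0 in all 4. The SD and NES points share the HC rats of cohort 1.

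The wider purine pathway was read from 4 lists with 44 other genes on the array, of which 23 were tested. In SD against HC 10 were higher and 13 lower on average with a median of -0.04, and none was called. At an unadjusted p of at most 0.05 there were 4 (1 higher and 3 lower), against 334 of 2696 genes (12.4%). In NES 9 were higher and 14 lower, none was called and 1 had such a p.

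The 3 lower ones belonged to the list of adenosine receptors and their supply, in which 7 of 9 genes tested were lower on average. Alpl, the alkaline phosphatase that can strip phosphate from nucleotides outside cells, showed -0.24 ± 0.067 at 24SD and -0.14 ± 0.062 at 72SD (adjusted p = 0.149). Slc29a2, an equilibrative nucleoside transporter, showed -0.23 ± 0.080 and -0.04 ± 0.075 (adjusted p = 0.24). Slc28a1, a concentrative nucleoside transporter, showed -0.11 ± 0.062 and -0.16 ± 0.058 (adjusted p = 0.308).

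Of the list of purine synthesis, Atic, which carries out the last steps of inosine monophosphate synthesis, showed 0.11 ± 0.069 at 24SD and 0.22 ± 0.065 at 72SD (adjusted p = 0.189). The other 3 genes of that list had unadjusted p-values above 0.05. In NES Alpl was the 1 gene with such a p, at -0.20 ± 0.14 for 24NES and 0.14 ± 0.15 for 72NES (adjusted p = 0.425). The 3 ATP receptors tested, P2rx2, P2rx4 and P2ry12, were all lower on average in SD, with a median of -0.06. In the list of purine salvage and breakdown 5 of 7 were higher, with a median of 0.02.

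**Figure D4:**
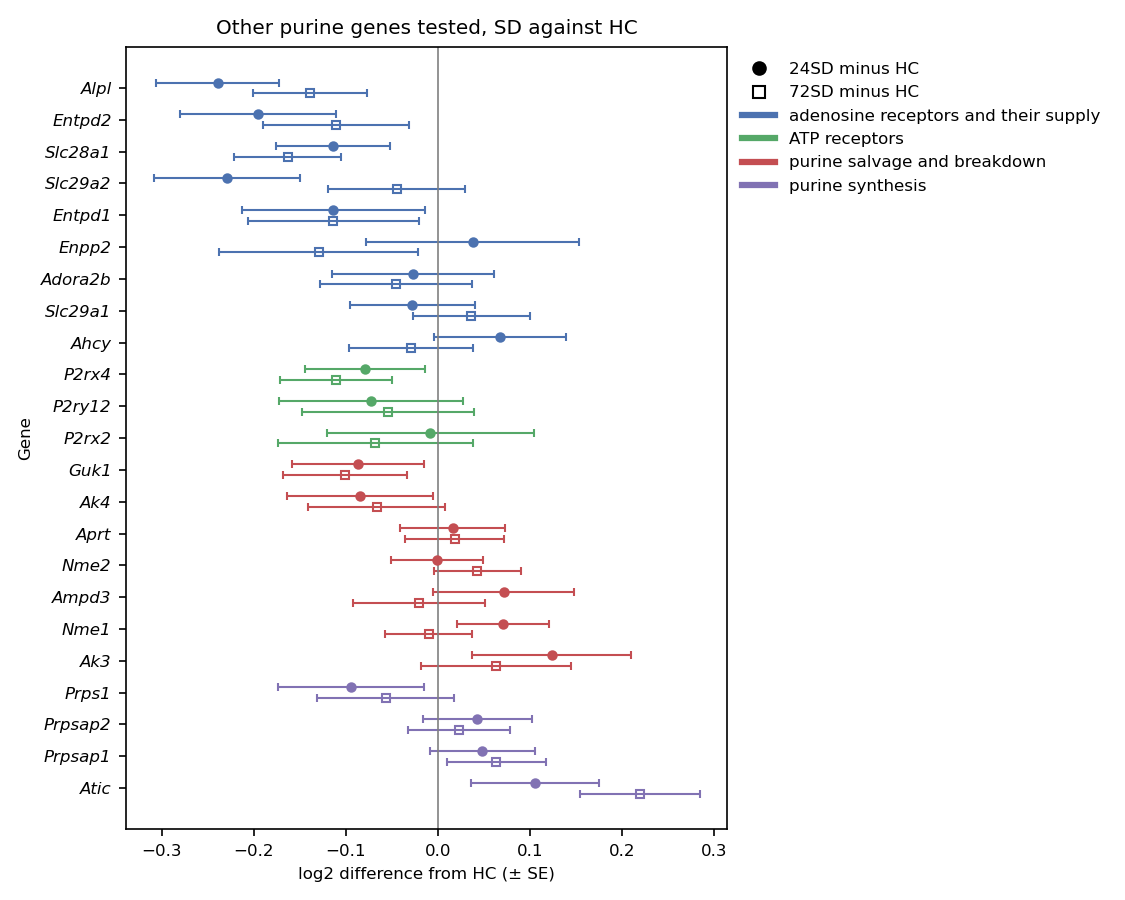
Log2 difference from HC (± standard error) of the 23 other purine genes tested, at 24SD (filled circles) and 72SD (open squares), coloured by list. Alpl at 24SD, at -0.24, is the lowest of these differences and Atic at 72SD, at 0.22, the highest, and none was called.

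For each of the 4 members among the genes tested, the 3 genes whose levels followed it most closely across the 69 rats, group-by-cohort means removed, were named as a description. No p is given, since signals of 1 array share its RNA, hybridization and scaling. Gda was followed by Rala, a small GTPase (Pearson's r 0.65), Nrxn3, a synaptic adhesion molecule (0.59), and Gabrb2, a GABA-A receptor subunit (0.57). Of these Nrxn3 showed -0.18 ± 0.063 at 24SD and -0.18 ± 0.059 at 72SD (adjusted p = 0.197). Adk was followed by Zfp260 (0.74), Pdlim5 (0.59) and Cttn (0.57). Hprt1 was followed by Hnrnpf (0.76), Cdk17 (0.72) and Ndufa5 (0.69), and Adora2a by Chrnb4 (0.61), Thbd (0.59) and Utrn (0.59).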

How the data were processed

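The authors deposited 1 MAS5 intensity (signal) per probe set and array, not log transformed and scaled per array (MAS5 is named in the submitters' processing notes, its version is not given in the sources used here). Signals were set to at least 1 and log2 transformed. Probe sets were named by the platform annotation, in which 7006 probe sets carry 1 symbol, 6985 of them matched to RefSeq by gene number. The upper 50% of mean log2 signal, keeping the brightest probe set of a gene, gave 2696 genes. All features were fitted in limma 3.58.1 (R 4.3.3): SD with cohort as a term, NES in cohort 1, and SD against NES in cohort 1 with HC in the fit. Benjamini-Hochberg adjustment covered all features of a fit. The scripts were tested on simulated data with known changes. The members and lists were chosen with earlier results of these data known. Pathway genes are named where an F-test had an unadjusted p of at most 0.05, and for each member the 3 genes with the highest correlation; the other pathway and marker genes named in the text were chosen after their values were seen. Alternatives were another normalization, floor, filter or prior, the 1-way analysis of variance of the methods, each cohort alone, and arrays left out. Detection calls and background readings are not used here. The number of arrays limits the precision. Figures were drawn with matplotlib 3.10.9.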

Additional observations from a re-analysis of the deposited data

Results flagged for a closer look

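Of 48 sets of 5 to 10 rats of 1 group and cohort, 1 for each member probe set, 3 held a rat whose gap to the nearest other value passed Dixon's 95% limit; chance gives about 1 in 20 such sets. On the dimmer Hprt1 probe set, 24SD array 30 of cohort 2 had 1692, and the other 7 rats of its group had 2632 to 3356. On the same probe set, 24SD array 24 of cohort 1 had 1821, with the others at 2322 to 2716. On the dim Gda probe set U03629_at, 72SD array 37 of cohort 1 had 459.6, with the others at 70.5 to 237.7.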

How the results depend on the processing

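The number of rats and the dimness of Adora1 and of Gda probe set U03629_at limit what could be seen here. Over 48 member differences recomputed under the alternatives (578 values), 558 kept their direction and side of the threshold, 2 lost a call, 18 changed direction and none gained a call. The single member called by the F-test in SD became 0 with each array centred on its median, with no signal filter, over every probe set, with cohort left out and in either cohort alone, and ranged over 0 to 1 as 1 array was left out (the arrays left out other than 24SD array 30 and HC array 3 were chosen after seeing the data). The genes called by the F-test in SD, 10 at first, were 6 with no signal filter and 6 in the upper 40% of signals. They were 0 with cohort left out and 0 in cohort 2 (126 and 206 with an unadjusted p of at most 0.05, limma), and 6 to 14 without 1 array. The analysis of variance with values over 2 standard deviations from their group mean removed called 112 genes. Gda had an adjusted p of 0.00235 there, and 0.0384 in the analysis of variance without removal. Such removal narrows the spread within groups, so its p-values come out too small. It left 574 genes with an unadjusted p of at most 0.05, against 336 without removal. For 24SD against HC the 39 genes became 9 with no signal filter, 18 over every probe set, 3 with cohort left out, 23 in cohort 1, 0 in cohort 2 (284 unadjusted) and 12 to 61 without 1 array (12 without HC array 2, 61 without HC array 11). Gda at 24SD lost its call in each cohort alone, at -0.37 in cohort 1 and -0.27 in cohort 2. No member was called in NES, in SD against NES or between cohorts in the SD change under any alternative run.

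The differences that changed direction were at most 0.51 in size (Gda U03629_at at 24SD), and none was called. Adora2a at 24SD became 0.020 under quantile normalization, 0.025 with centring, 0.0050 with cohort left out and 0.10 in cohort 1, and was -0.016 to 0.012 without 1 array of high GAPDH ratio. Adora1 for 24SD minus 24NES became 0.026 under quantile normalization and 0.013 with centring, and for 24SD it was -0.12 in cohort 1. In cohort 1 alone Gda U03629_at was -0.091 at 24SD and -0.16 at 72SD, and at 72SD Hprt1 was 0.070 on the brighter and -0.033 on the dimmer probe set. Without 1 array, Adora1 ranged over -0.22 to 0.020 for 24NES and -0.28 to 0.10 for 72NES, Adora2a over -0.0015 to 0.15 for 24NES, Gda U03629_at over -0.087 to 0.11 for 24NES, and Adk over -0.13 to 0.055 for 72SD minus 72NES. The cause was not tested. With the upper 40% of signals Adora2a left the table and has no value. No paired analysis was possible because each subject number in the labels belongs to a single animal of 1 group.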
